A study of Mus musculus with 10 samples.

Results

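The 10 genes described here mark inhibitory interneurons of the forebrain and the lineage that gives rise to them. They are the transcription factor genes *Dlx1*, *Dlx2*, *Dlx5*, *Dlx6*, *Lhx6* and *Nkx2-1*, the neuropeptide genes *Sst*, *Npy* and *Vip*, and the calcium-binding protein gene *Pvalb*. They were chosen by symbol, and 10 of 10 were found among the 18444 genes of the table. The values are normalised read counts, which the study's methods describe as reads of a gene divided by size factors. Whether a length correction for each gene was also applied is not given in the sources used here. All 10 had a mean of at least 10 normalised counts over the libraries and were tested among 17020 genes.

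Poly-A RNA was taken from the whole brain at postnatal day 3, from C57BL/6N males. The HT group held 5 mice heterozygous for *Arid1b*. In these mice exon 5 of 1 allele carried a germline Cas9 nickase edit, a deletion with a short insertion, that was present in all cells and not in chosen cell types. The WT group held 5 mice with both alleles unedited. Both groups came from crosses of HT fathers with WT mothers, and each mouse gave 1 library. *Arid1b* encodes a subunit of a SWI/SNF chromatin remodeling complex.

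Cortical interneurons are born outside the cortex, in the ganglionic eminences of the ventral forebrain, and reach the cortex by tangential migration. The DLX homeodomain proteins act in progenitors and migrating neurons of all the eminences. NKX2-1 specifies the medial ganglionic eminence and switches on *Lhx6*, which is needed for the neurons that later make somatostatin or parvalbumin. Vasoactive intestinal peptide marks neurons of the caudal eminence, and neuropeptide Y is made by several classes. The same genes are used elsewhere. *Dlx* genes are also active in striatal projection neurons and the olfactory bulb, *Nkx2-1* and all 3 peptide genes in the hypothalamus, and *Pvalb* in cerebellum and muscle. In whole brain, fewer cells of a type and less RNA per cell cannot be told apart.

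The library totals lay between 27.2 M and 29.03 M normalised counts. *Arid1b* had 2372, 2230, 2253, 1505 and 2142 normalised counts in HT 1 to HT 5, and 3108 to 3597 in the WT libraries. Each HT library was therefore below each WT library. The log2 fold change was -0.68 ± 0.11 (SE), with an exact permutation p of 0.00794, the smallest that 5 against 5 libraries allow. Its limma adjusted p was 0.390 with all libraries and 0.000247 without HT 4. HT 4 stood apart from the other 9 libraries. It scored 53.9 on the first principal component, where the others lay between -23.4 and 9.81. Values without HT 4 are given beside the results that it moved.

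No gene of the group passed the threshold between HT and WT. Of the 10 genes, 0 had a limma adjusted p under 0.05, and 0% of the 17020 genes tested did (0 genes, with 580 at an unadjusted p under 0.05). At an unadjusted p under 0.05 there were 2 of 10 genes, *Npy* and *Sst*, both higher in HT. The same criterion was met by 3.41% of all genes tested, by 1.47% in the higher direction and by 1.93% in the lower one. In all, 6 of the 10 genes had a higher mean log2 value in HT and 4 a lower one, where 46.4% of all genes were higher. The median log2 fold change was 0.033 for the 10 genes and -0.0074 for all genes, while the median of the absolute values was 0.145 and 0.0611. For 0 of the 10 genes did the HT and WT libraries separate without overlap, as 0.629% of all genes did.

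The same counts were made without HT 4. Of the 10 genes, 0 had a limma adjusted p under 0.05, where 0.0118% of all genes did. An unadjusted p under 0.05 was found for 2 of 10, *Npy* (higher) and *Pvalb* (lower), against 8.38% of all genes, with 3.69% in the lower direction. *Pvalb* was the 1 gene whose libraries did not overlap, as was the case for 2.96% of all genes (1.21% lower and 1.75% higher in HT).

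**Figure D1:**
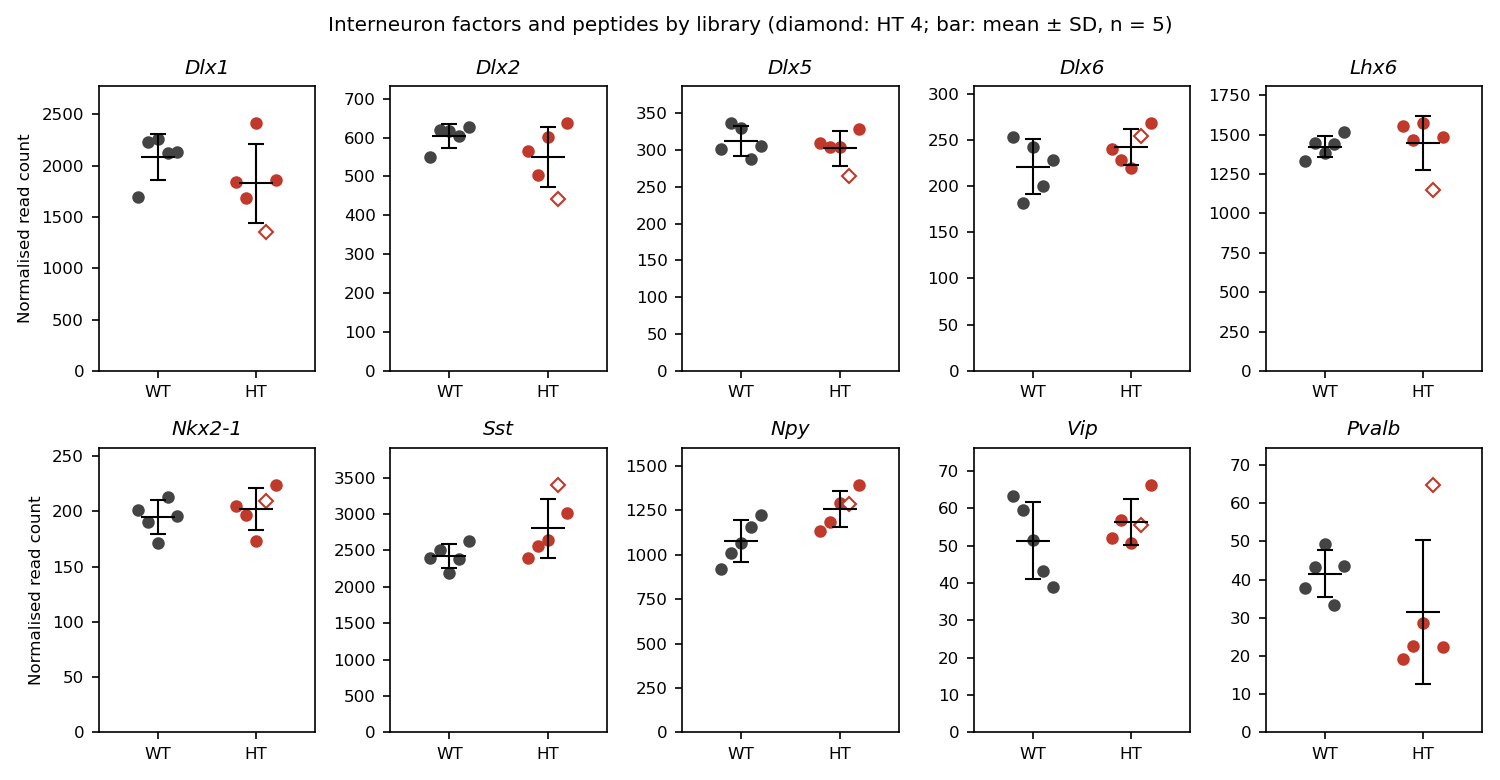
Normalised read counts (vertical axes, from 0) of the 10 genes in each WT and HT library, with the mean and SD of 5 mice as a bar. The open diamond is HT 4, which is the lowest library for *Dlx1*, *Dlx2*, *Dlx5* and *Lhx6* and the highest for *Sst* and *Pvalb*.

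*Dlx1* and *Dlx2*, which encode homeodomain factors of early interneuron progenitors, were the 2 factor genes with the lowest HT to WT ratio. *Dlx1* (ENSMUSG00000041911; GRCm38 chromosome 2, 71528113 to 71533981, plus strand) had 1845, 1680, 2413, 1350 and 1856 normalised counts in HT 1 to HT 5. In WT 1 to WT 5 it had 1696, 2226, 2258, 2122 and 2128. The groups overlapped, since HT 3 was the highest of all libraries and WT 1 lay among the HT values. On average HT reached 87.7% of WT, and the log2 fold change was -0.21 ± 0.13 (SE, limma unadjusted p 0.134, adjusted p 1.00, exact permutation p 0.198). Its 95% interval ran from -0.49 to 0.074. Without HT 4 the log2 fold change was -0.10 (unadjusted p 0.356), and without HT 3 it was -0.31 (unadjusted p 0.0129).

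*Dlx2* (ENSMUSG00000023391; chromosome 2, 71543408 to 71546754, minus strand) had 565, 505, 603, 443 and 637 normalised counts in HT 1 to HT 5 and 551, 619, 618, 604 and 626 in WT 1 to WT 5. Here HT 2 and HT 4 lay below all WT libraries and HT 5 above them. The log2 fold change was -0.14 ± 0.093 (SE, limma adjusted p 1.00, exact permutation p 0.214), with a 95% interval from -0.34 to 0.058. It was -0.068 without HT 4. In HT 4 the markers of cortical glutamatergic and striatal projection neurons were also low. The mean log2 deviation of 10 cortical glutamatergic markers was -0.37 in HT 4 against -0.044 to 0.15 in the other libraries, and that of 10 striatal markers was -0.20 against -0.036 to 0.13. For 8 cerebellar markers it was 0.68, against -1.28 to 0.47. For hypothalamic markers HT 4 lay inside the range of the others, at 0.43 against -0.39 to 0.59. The same held for genes of GABA synthesis and transport (-0.015 against -0.13 to 0.083) and other interneuron markers (0.058 against -0.17 to 0.11). The part of these shifts in the *Dlx* values was not tested.

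*Dlx5* and *Dlx6* act after *Dlx1* and *Dlx2* in the same neurons as they leave the progenitor zone. *Dlx5* (ENSMUSG00000029755; chromosome 6, 6877805 to 6882085, minus strand) ranged from 264 to 329 normalised counts in HT (median 304) and from 288 to 336 in WT (median 305). Its log2 fold change was -0.048, and -0.0012 without HT 4. *Dlx6* (ENSMUSG00000029754; chromosome 6, 6863334 to 6868568, plus strand) ranged from 219 to 268 in HT (median 240.5) and from 182 to 253 in WT (median 228). Its log2 fold change was 0.14 ± 0.11 (SE), with a 95% interval from -0.093 to 0.37. Both groups overlapped for both genes, with limma adjusted p of 1.00.

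The 4 *Dlx* genes lie in 2 pairs of convergent neighbours. A gap of 9426 bases separates *Dlx1* from *Dlx2* and one of 9236 bases separates *Dlx5* from *Dlx6*. An antisense gene, *Dlx1as*, covers 100% of *Dlx1*, and *Dlx6os1*, a long noncoding RNA known for a part in *Dlx5* and *Dlx6* regulation, covers 100% of *Dlx6* on the opposite strand. The labels name a library kit that keeps strand, but whether the counting used it is not given in the sources used here, so that reads of these partners may not be fully apart. *Dlx1as* (ENSMUSG00000084946) averaged 203 ± 40.8 normalised counts over HT mice and 211 ± 28.5 over WT mice (SD, n = 5 each), with a log2 fold change of -0.072. *Dlx6os1* (ENSMUSG00000090063) averaged 774 ± 208 over HT mice and 788 ± 81.8 over WT mice (SD, n = 5 each), with a log2 fold change of -0.071. HT 4 was the lowest library for both, at 134 and 435. Without HT 4 both had a positive log2 fold change, 0.071 for *Dlx1as* and 0.12 for *Dlx6os1*, with limma adjusted p of 0.904 and 0.752.

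*Nkx2-1* and *Lhx6*, the factors of the medial eminence, differed little in mean. *Lhx6* (ENSMUSG00000026890; chromosome 2, 36081953 to 36105408, minus strand) had 1557, 1468, 1574, 1151 and 1484 normalised counts in HT 1 to HT 5. In WT 1 to WT 5 it had 1334, 1450, 1385, 1441 and 1514. HT 4 was the lowest library, whereas each of the other HT libraries lay above 4 of the 5 WT libraries or more. The log2 fold change was 0.014 ± 0.080 (SE, limma adjusted p 1.00), with a 95% interval from -0.16 to 0.19. Without HT 4 it was 0.094 ± 0.049 (SE, unadjusted p 0.0750, adjusted p 0.632, exact permutation p 0.0794). *Nkx2-1* (ENSMUSG00000001496; chromosome 12, 56531958 to 56536908, minus strand) ranged from 173 to 224 in HT (median 205) and from 171 to 213 in WT (median 196). Its log2 fold change was 0.051 ± 0.097 (SE), with a 95% interval from -0.16 to 0.26.

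**Figure D2:**
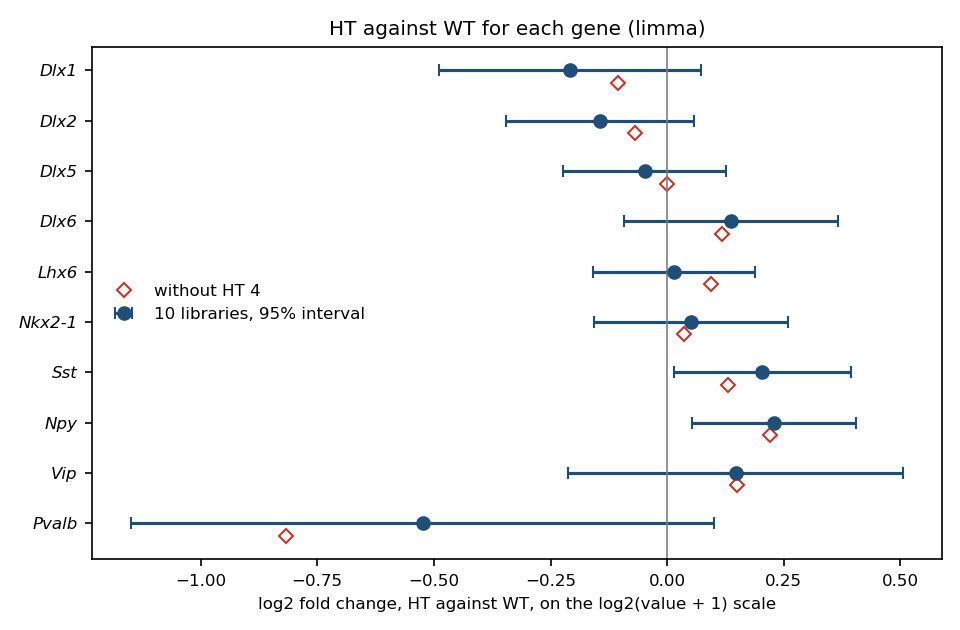
Log2 fold change of each gene, HT against WT, on the log2(value + 1) scale, with limma's 95% interval over 10 libraries (filled circles) and the value without HT 4 (open diamonds). The intervals of *Sst* and *Npy* lie above 0, and *Pvalb* moves from -0.52 to -0.82 without HT 4.

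The peptide genes encode secreted signals that mark mature classes of interneurons, and their promoters are shown because *Sst* and *Npy* carried the smallest p of the group. *Pvalb* is shown beside them as a gene whose difference depended on HT 4. Each sequence runs 5′ to 3′ from 250 bases before to 50 bases after a start site in RefSeq (GRCm38.p6), in which 8 of the 10 genes had an entry by symbol. Capitals mark a cAMP response element (TGACGTCA, the binding site of CREB) or a TATA box (TATAAA or TTTATA on either strand).
Sst, chr16:23890795-23891094, minus strand: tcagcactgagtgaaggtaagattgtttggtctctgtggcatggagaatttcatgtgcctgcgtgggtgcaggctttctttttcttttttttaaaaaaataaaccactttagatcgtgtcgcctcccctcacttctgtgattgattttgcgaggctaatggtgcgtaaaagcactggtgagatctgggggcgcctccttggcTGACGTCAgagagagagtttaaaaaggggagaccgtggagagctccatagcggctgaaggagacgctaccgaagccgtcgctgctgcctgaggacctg
Npy, chr6:49822460-49822759, plus strand: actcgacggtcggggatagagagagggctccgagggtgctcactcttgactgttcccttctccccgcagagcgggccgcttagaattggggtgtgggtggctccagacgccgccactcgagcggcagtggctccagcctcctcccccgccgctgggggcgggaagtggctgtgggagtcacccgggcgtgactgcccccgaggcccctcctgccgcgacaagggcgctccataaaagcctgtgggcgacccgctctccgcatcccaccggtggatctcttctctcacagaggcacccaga
Vip, chr10:5638968-5639267, plus strand: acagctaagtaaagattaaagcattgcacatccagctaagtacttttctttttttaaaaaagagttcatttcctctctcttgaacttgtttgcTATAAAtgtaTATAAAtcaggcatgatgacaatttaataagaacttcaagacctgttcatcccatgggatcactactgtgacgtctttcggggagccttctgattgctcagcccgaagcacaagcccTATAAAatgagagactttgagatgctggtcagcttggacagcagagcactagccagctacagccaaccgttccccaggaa
Pvalb, chr15:78206351-78206650, minus strand: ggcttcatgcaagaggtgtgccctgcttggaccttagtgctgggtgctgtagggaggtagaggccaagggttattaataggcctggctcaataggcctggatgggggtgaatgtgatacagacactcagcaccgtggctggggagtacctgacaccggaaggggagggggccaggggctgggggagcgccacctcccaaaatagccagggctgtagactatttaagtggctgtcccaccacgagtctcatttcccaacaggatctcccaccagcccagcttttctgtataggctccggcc

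The *Sst* window held 1 cAMP response element, which began at position -48 from the start. This element occurs in 1.79% of the 32851 RefSeq promoters, and 1 of the 8 genes with an entry, *Sst*, had it. The *Vip* window held 3 TATA boxes, beginning at positions -157, -147 and -30 from the start, where 13.6% of all promoters hold at least 1. The windows of *Npy* and *Pvalb* held neither of these exact words. The word TAATTA, a core bound by many homeodomain proteins, and the word CAAGTG, a core bound by NKX2-1, were found in the windows of 0 of the 8 genes, and in 5.29% and 13.6% of all promoters. Both strands were searched. These matches are descriptions of the letters only.

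*Npy* encodes neuropeptide Y and had the smallest p of the 10 genes. *Npy* (ENSMUSG00000029819; chromosome 6, 49822710 to 49829507, plus strand) had 1134, 1186, 1293, 1287 and 1395 normalised counts in HT 1 to HT 5 and 921, 1013, 1067, 1157 and 1222 in WT 1 to WT 5. In 3 of the 5 HT libraries the value was above all WT libraries, and the other 2 lay within the WT range. On average HT reached 117% of WT, at 1259 ± 102 against 1076 ± 119 (SD, n = 5 each). The log2 fold change was 0.23 ± 0.082 (SE), with a 95% interval from 0.053 to 0.41. The limma unadjusted p was 0.0146 and the exact permutation p 0.0397, but the limma adjusted p was 1.00. The unadjusted p was under 0.05 in 21 of 21 settings of the fit, which include leaving out each library in turn, and the adjusted p was never below 0.509. Without HT 4 the log2 fold change was 0.22 (exact permutation p 0.0794).

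*Sst* encodes somatostatin, and its unadjusted p depended on single libraries. *Sst* (ENSMUSG00000004366; chromosome 16, 23889573 to 23890958, minus strand) had 2396, 2562, 2649, 3402 and 3015 normalised counts in HT 1 to HT 5 and 2391, 2510, 2195, 2376 and 2629 in WT 1 to WT 5. In 3 of the 5 HT libraries the value was above all WT libraries, and HT 1 and HT 2 lay inside the WT range. On average HT reached 116% of WT, and the log2 fold change was 0.20 ± 0.088 (SE, limma unadjusted p 0.0371, adjusted p 1.00, exact permutation p 0.0635). Its 95% interval ran from 0.014 to 0.39. Without HT 4 the log2 fold change was 0.13 ± 0.065 (SE, unadjusted p 0.0648). In 15 of 21 settings the unadjusted p was under 0.05. It was above without HT 5 (0.0895), WT 1 (0.0639), WT 3 (0.0938) or WT 4 (0.0660) as well, and with libraries rescaled to equal totals (0.0581), and it was 0.0264 with array weights, which gave HT 4 little weight.

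*Vip* (ENSMUSG00000019772; chromosome 10, 5639218 to 5647617, plus strand), the gene of vasoactive intestinal peptide, was rare at this age. It ranged from 50.6 to 66.3 normalised counts in HT (median 55.6) and from 39.1 to 63.3 in WT (median 51.5). The groups overlapped, and HT 5 alone lay above all WT libraries. The log2 fold change was 0.15 ± 0.17 (SE, limma adjusted p 1.00), with a 95% interval from -0.21 to 0.51 that leaves room for differences of either sign.

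*Pvalb* encodes parvalbumin, which appears in most cortical interneurons of its class only later in postnatal life, and it was the lowest of the 10 genes, averaging 31.5 ± 19.0 normalised counts over HT mice and 41.5 ± 6.12 over WT mice (SD, n = 5 each). *Pvalb* (ENSMUSG00000005716; chromosome 15, 78191114 to 78206400, minus strand) had 19.2, 22.6, 28.7, 64.9 and 22.3 normalised counts in HT 1 to HT 5. In WT 1 to WT 5 it had 37.8, 43.4, 49.4, 33.4 and 43.7. In 4 of the 5 HT libraries the value was below all WT libraries, while HT 4 was above them all. With all libraries the log2 fold change was -0.52 ± 0.29 (SE, limma unadjusted p 0.0934, adjusted p 1.00, exact permutation p 0.143), with a 95% interval from -1.15 to 0.10.

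Without HT 4, *Pvalb* had 23.2 ± 3.97 normalised counts in HT (SD, n = 4) and did not overlap with WT. The log2 fold change was then -0.82 ± 0.20 (SE), with an unadjusted limma p of 0.00128, an adjusted p of 0.418 and an exact permutation p of 0.00794, the smallest that 4 against 5 libraries allow. At this level each value rests on few reads. Parvalbumin is also made in fast muscle, and skeletal muscle markers were read beside it. All 7 of the markers tested had a lower mean log2 value in HT. The 8 muscle markers found, 1 of them too low to be tested, summed to 217 to 353 normalised counts in HT, with HT 4 the highest, and to 250.3 to 542 in WT. *Tnnt3*, a fast troponin gene, was the 1 of them at an unadjusted p under 0.05 (log2 fold change -0.94, unadjusted limma p 0.0448). *Ckm* and *Tnni2* were listed at 0 in at least 1 library. Cerebellar markers come from a region rich in *Pvalb* neurons. The 9 found, 1 of them too low to be tested, summed to 6534 to 11562 normalised counts in HT, again with HT 4 the highest, and to 8389 to 10645 in WT. For 6 of the 8 of them tested the mean log2 value was lower in HT, with *Zic1* at -0.20 (unadjusted limma p 0.151) and, among the higher ones, *Pax2* at 0.11 (unadjusted p 0.737). Without HT 4, 7 of the 8 were lower in HT, the median of the list was -0.24 against -0.13, *Zic1* had -0.29 (unadjusted limma p 0.0470) and *Pax2* 0.0019. The part of muscle or cerebellar RNA in the *Pvalb* values was not tested.

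**Figure D3:**
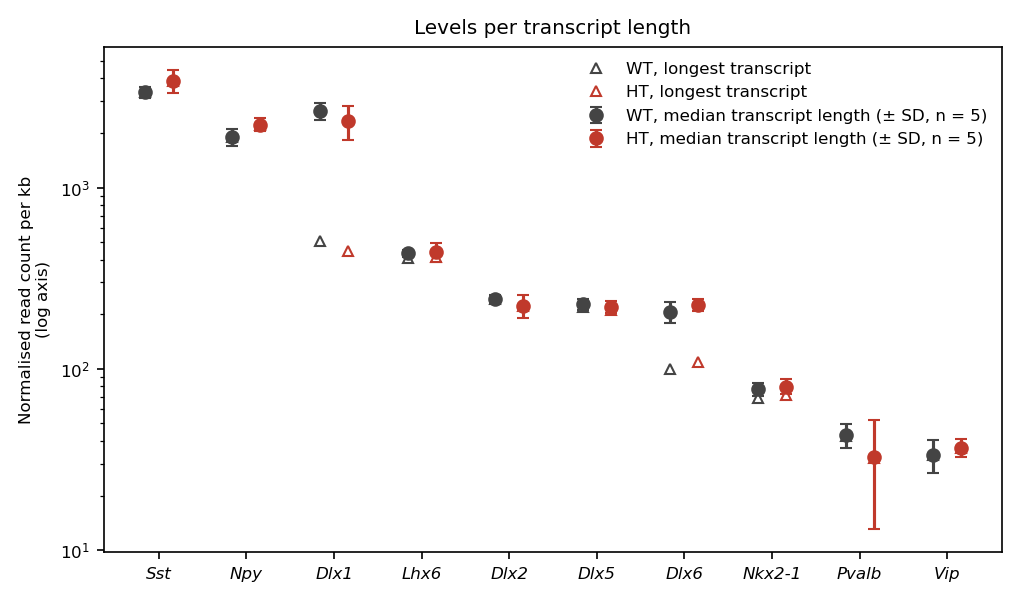
Normalised read counts per kb of transcript (log axis) for each gene in WT and HT, with the mean and SD of 5 libraries at the median annotated transcript length (filled circles) and the mean at the longest transcript (open triangles). *Sst* is highest and *Vip* and *Pvalb* lowest at either length, and *Dlx1* moves most with the choice of length.

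Levels were set against each other per transcript length, as normalised counts per kb of the median annotated coding transcript. In WT the order was *Sst* (3357 ± 225), *Dlx1* (2651 ± 287), *Npy* (1901 ± 209), *Lhx6* (433 ± 20.8), *Dlx2* (244 ± 12.3), *Dlx5* (227 ± 14.8), *Dlx6* (206 ± 27.6), *Nkx2-1* (77.0 ± 6.08), *Pvalb* (43.02 ± 6.34) and *Vip* (33.5 ± 6.76; SD, n = 5). Neighbours in this order overlapped between libraries for *Dlx1* and *Npy*, for *Dlx2*, *Dlx5* and *Dlx6*, and for *Pvalb* and *Vip*. The place of *Dlx1* rests on the annotation. With its longest transcript (4111 bases, against a median of 787) its WT level was 507 per kb, below *Npy*. By the mean over all libraries *Sst* stood at the 95.1 percentile of the genes tested, *Dlx1* at 92.5, *Npy* at 90.7 and *Lhx6* at 63.2, while *Nkx2-1* stood at 30.7, *Pvalb* at 21.2 and *Vip* at 20.4. *Dlx2*, *Dlx5* and *Dlx6* lay close to the middle, at 49.4, 48.3 and 47.6. In HT the order from *Sst* to *Lhx6* was the same, and *Vip* (36.8 ± 4.03) stood above *Pvalb* (32.7 ± 19.7), with overlapping libraries.

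A size factor for the library cancels in a ratio of 2 genes, and 4 such ratios were compared between the groups. The values were imported from transcript estimates, and whether they also carry a length correction for each gene, which would not cancel, is not given in the sources used here. The *Dlx1* to *Dlx2* ratio averaged 3.31 ± 0.421 over HT mice and 3.45 ± 0.229 over WT mice (SD, n = 5 each), and the *Dlx5* to *Dlx6* ratio was 1.25 ± 0.133 and 1.44 ± 0.249. The *Sst* to *Lhx6* ratio, peptide over lineage factor, was 1.99 ± 0.568 in HT and 1.70 ± 0.0816 in WT. HT 4 had the highest value, 2.95, while the other HT libraries had 1.54 to 2.03. The *Npy* to *Sst* ratio was 0.453 ± 0.0430 and 0.445 ± 0.0479. None of the 4 ratios differed beyond the spread between mice, with exact permutation p from 0.206 to 0.929 (0.656 to 0.929 adjusted over the 4 ratios). Without HT 4 the *Sst* to *Lhx6* difference was 0.037 on the log2 scale, against 0.19 with all libraries.

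**Figure D4:**
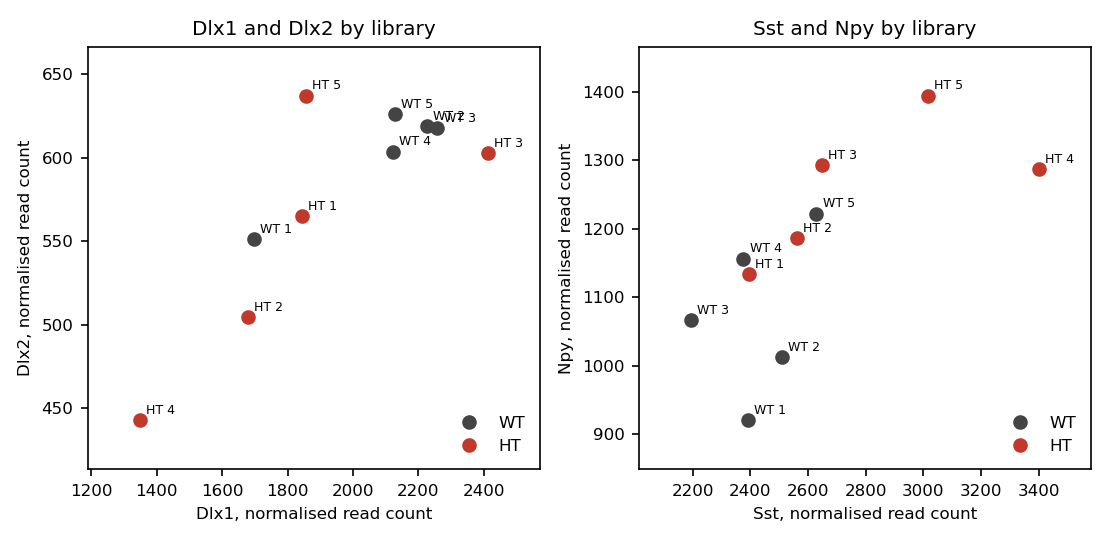
Normalised read counts of *Dlx2* against *Dlx1* (left) and of *Npy* against *Sst* (right), 1 point per library, with WT in grey and HT in red. HT 4 is the lowest point for the *Dlx* pair, and it is the highest for *Sst* but not for *Npy*.

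Whether genes of the group varied together was asked over the 10 libraries for 5 pairs. *Dlx1* and *Dlx2* had a Pearson r of 0.87 (permutation p 0.00195, 0.00975 adjusted over the 5 pairs) and a Spearman rho of 0.65 (permutation p 0.0489, adjusted 0.122). Without the 2 libraries farthest from the median of *Dlx1*, HT 3 and HT 4, r was 0.77, and within genotype, with group means taken out, it was 0.83 (adjusted permutation p 0.0230). Without HT 4 alone r was 0.70 (adjusted permutation p 0.0767). *Sst* and *Npy* had an r of 0.69 (permutation p 0.0293, adjusted 0.0732) and a rho of 0.81 (permutation p 0.00710, adjusted 0.0355). Without HT 4 and HT 5 the r was 0.55. Within genotype it was 0.49 (adjusted permutation p 0.257), so that the relation did not pass within the groups.

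The other 3 pairs did not pass over all libraries. *Dlx5* and *Dlx6* had an r of -0.19 and a rho of -0.12 (permutation p 0.592 and 0.760), but an r of 0.75 once HT 4 and WT 2 were left out. *Lhx6* and *Nkx2-1* had an r of -0.21 and a rho of -0.16 (permutation p 0.559 and 0.657), and an r of 0.076 without HT 4 and WT 1. *Lhx6* and *Sst* had an r of -0.45 and a rho of 0.25 (permutation p 0.183 and 0.493), where HT 4 joined the lowest *Lhx6* with the highest *Sst*. Without HT 4 and WT 1 their r was 0.46. The adjusted permutation p of these 3 pairs ran from 0.305 to 0.592 for r and was 0.760 for each rho.

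**Figure D5:**
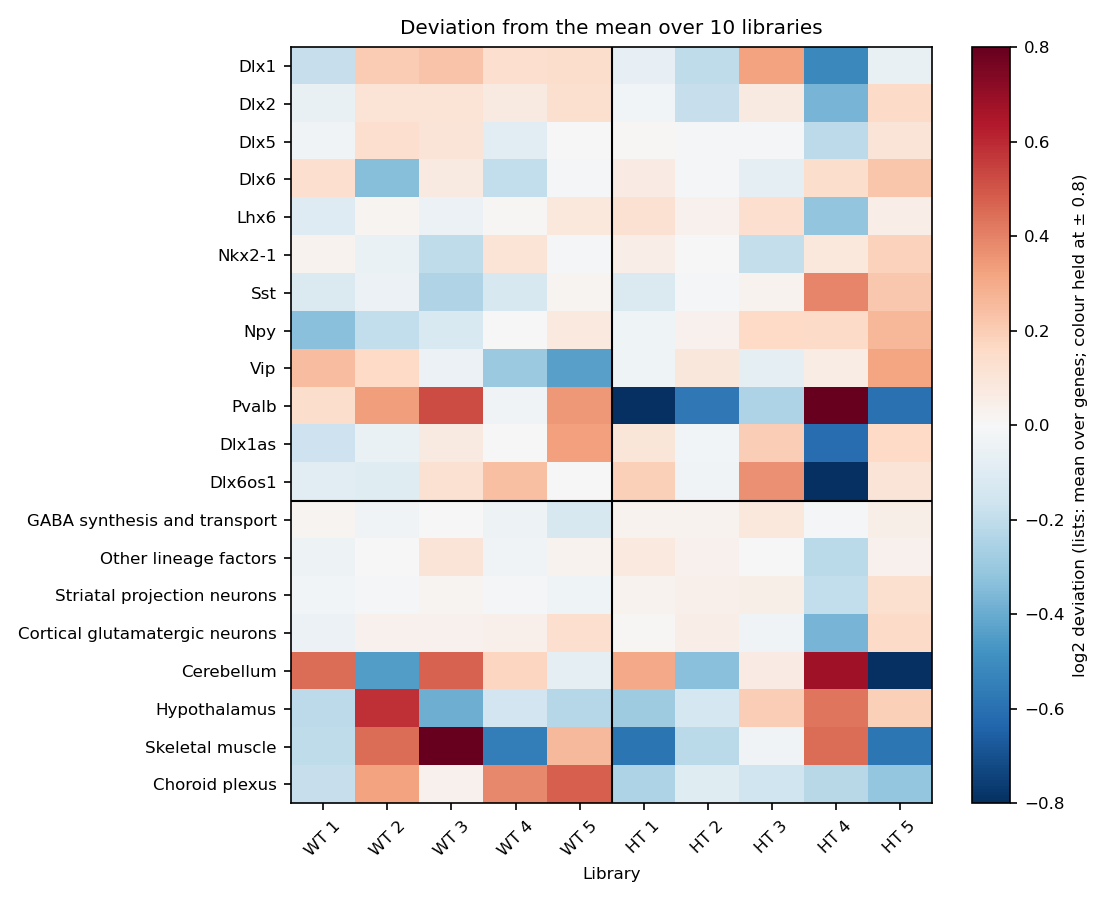
Log2 deviation of each gene from its mean over the 10 libraries, by library, with the mean deviation of marker lists below the line. HT 4 is low for *Dlx1*, *Dlx2*, *Lhx6* and both noncoding partners, high for *Sst* and *Pvalb*, and low for cortical and striatal markers, and the choroid plexus list is negative in all 5 HT libraries and in WT 1.

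In the wider lists of lineage and marker genes that follow, 0 genes had a limma adjusted p under 0.05. Over all genes tested, 46.4% were higher in HT and 3.41% had an unadjusted limma p under 0.05. Of 20 further lineage factors, 9 had a higher and 11 a lower mean log2 value in HT, and the median of their log2 fold changes was -0.0098. HT 4 was low for this list, with a mean log2 deviation of -0.22 against -0.041 to 0.10 in the other libraries. With HT 4 left out the median was 0.057, and 16 of the 20 factors were higher in HT. The median over all genes was then -0.00089.

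The 6 genes of GABA synthesis and transport, *Gad1* and *Gad2* among them, were each higher in mean log2 value in HT, by 0.027 to 0.11. None of them had an unadjusted p under 0.05. *Gad2*, which encodes a GABA-synthesizing enzyme, came nearest, averaging 3655 ± 248 normalised counts over HT mice and 3381 ± 145 over WT mice (SD, n = 5 each, unadjusted limma p 0.0721). Without HT 4 its log2 fold change was 0.16 (unadjusted p 0.00144, limma adjusted p 0.423). Their summed level was 33973 to 36522 normalised counts in HT and 31564 to 35033 in WT, so that the groups overlapped through HT 4, the lowest HT library. Each of the other 4 HT libraries had a higher sum than every WT library.

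Of 20 other interneuron markers, 15 were higher and 5 lower in HT (median 0.073 on the log2 scale), where 46.4% of all genes were higher. An unadjusted limma p under 0.05 was found for 3 of them, against 3.41% of all genes. *Tac1*, the substance P precursor gene, averaged 667 ± 82.9 normalised counts over HT mice and 524 ± 44.0 over WT mice (SD, n = 5 each). Its log2 fold change was 0.34 ± 0.092 (SE, unadjusted limma p 0.00252). *Lamp5*, a marker of neurogliaform cells, had a log2 fold change of 0.39 (unadjusted p 0.0396), and 0.35 (unadjusted p 0.0870) without HT 4. *Htr3a*, the serotonin receptor gene that marks caudal eminence interneurons, averaged 88.01 ± 6.32 over HT mice and 110.4 ± 18.0 over WT mice (SD, n = 5 each). Its log2 fold change was -0.31 (unadjusted p 0.0277), and the groups did not overlap, as for 0.629% of all genes. The limma adjusted p of all 3 markers was 1.00. Without HT 4, 7 of the 20 markers had an unadjusted p under 0.05, where 8.38% of all genes did. The RNA came from whole brain, and the part of interneurons in the values of these markers, *Tac1* among them, was not tested.

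The receptors of the peptides were read from the same fit. Of 13 genes listed, 11 were tested, of which 6 were higher and 5 lower in HT (median 0.062 on the log2 scale). *Sstr1*, a somatostatin receptor gene, had the smallest p, averaging 471 ± 25.8 normalised counts over HT mice and 422 ± 26.5 over WT mice (SD, n = 5 each). Its log2 fold change was 0.16 (unadjusted limma p 0.0371, adjusted p 1.00). *Sstr3* had the smallest p among the lower ones, at -0.12 (unadjusted p 0.223).

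Markers of other tissues and neuron types were set beside the 10 genes. Hypothalamic markers were higher in HT for 6 of 7 genes tested (median 0.31 on the log2 scale). Of the hypothalamic markers, 8 were found, 1 of them too low to be tested. They summed to 492 to 648 normalised counts in HT, with HT 4 the highest. In WT they summed to 419 to 1367, with WT 2 the highest, so that the groups overlapped. The other 4 WT libraries summed to 419 to 454, below every HT library. WT 2 was set apart here after its value was seen, so that this is not a separation of the groups. *Trh*, the thyrotropin-releasing hormone gene, had the smallest p of that list (log2 fold change 0.31, unadjusted limma p 0.0107). *Gal*, the galanin gene and the other of the 2 at an unadjusted p under 0.05, had 0.40 (unadjusted p 0.0264), and 0.28 (unadjusted p 0.0738) without HT 4, which left 1 gene of the list at an unadjusted p under 0.05. The 1 hypothalamic gene lower in HT was *Pomc*, the precursor of melanocortins (-0.75, unadjusted limma p 0.457). It averaged 26.2 ± 9.77 normalised counts over HT mice and 189 ± 378 over WT mice (SD, n = 5 each). The WT SD of *Pomc* was above its mean, so that a single library weighed heavily, and the list sum was highest in WT 2. Striatal markers were split, with 6 of 10 higher and a median of 0.020, and cortical glutamatergic markers were lower for 9 of 10, with a median of -0.072. With HT 4 left out these medians were 0.087 and 0.017, and 6 of the 10 cortical markers were higher. With all libraries the smallest p in each direction belonged to *Drd1* (0.11, unadjusted p 0.401) and *Ppp1r1b* (-0.066, unadjusted p 0.318) among the striatal genes. Among the cortical genes higher in HT it belonged to *Cux2* (0.037, unadjusted p 0.726). Choroid plexus markers were lower for 5 of 5 genes, with a median of -0.46. Their summed level, most of it *Ttr*, did not overlap between the groups, at 6598 to 9462 normalised counts in HT and 10017 to 13657 in WT. Taken singly, 1 of the 5 genes, *Ttr*, did not overlap, where 0.629% of all genes did not. *Ttr*, the transthyretin gene that leads this list, averaged 8118 ± 1190 over HT mice and 11181 ± 1530 over WT mice (SD, n = 5 each, unadjusted limma p 0.00146, adjusted p 1.00). The part of hypothalamic RNA in the *Npy*, *Sst* and *Nkx2-1* values was not tested.

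The genes whose log2 values followed each member most closely over the 10 libraries were listed by Pearson r (up to 2 for each), with no test, since the highest of 17020 values is always large. For *Dlx1* they were *Gm37581* (0.96) and *Dusp4* (0.95), for *Dlx2* *Tmem108* (0.93) and *Ikbkg* (0.92), for *Dlx5* *Arhgap31* (0.93) and *Lipg* (0.91), and for *Dlx6* *Lamp5* (0.87). For *Lhx6* they were *Grik2* and *Epha3* (0.97 each), and for *Nkx2-1* *Ms4a6c* (0.92) and *Fsd2* (0.86). Among the peptides, *Sst* was followed by *Timm9* and *Gm13205* (0.97 each), *Npy* by *Gm34425* (0.93) and *Zfp503* (0.92), and *Vip* by *Stat4* (0.95) and *Gm48693* (0.94). *Pvalb* was followed by *Gm42742* (0.97) and *Fxyd1* (0.96). All points share the size factors and HT 4, and without HT 4 these r ran from 0.80 (*Dlx2* and *Ikbkg*) to 0.96 (*Vip* and *Stat4*).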

How the data were processed

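Poly-A RNA of 10 whole brains was sequenced as paired-end libraries, made per the labels with a stranded kit. Per the study's methods and processing notes, the authors quantified reads with Salmon 1.1.0 against GRCm38 with GC bias correction, imported gene estimates with tximport and normalised them with DESeq2 1.30.1. The deposited signal values are normalised read counts, not whole numbers. The best step of a single read made 18.2% to 54.8% of low values whole (within 0.05), so that whole reads were not recovered, count tests were not run and the depth behind each value is unknown. The annotation release is not given in the sources used here.

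Symbols, positions and transcript lengths were taken from GENCODE M21 (GRCm38), which matched 18431 of 18444 genes. Groups and replicate numbers came from the sample labels. Values were analysed as log2(value + 1), which understates changes of low genes, in R 4.3.3 with limma 3.58.1 (limma-trend, robust empirical Bayes, two-sided, Benjamini-Hochberg over 17020 genes with a mean of at least 10, threshold 0.05). The workflow was tested on simulated data. Single values were compared by two-sided exact permutation over 252 assignments, and correlations by 100000 permutations. SciPy 1.17.1 was used for these tests. Alternatives covered the pseudocount, the filter, scaling, array weights, a replicate block, removal of length and GC trends, and leaving out each library.

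Named genes were the 10 members, *Arid1b*, the 2 opposite-strand transcripts, the list genes with the smallest p in each direction, and the 2 genes most alike to each member. *Lamp5*, *Gal*, *Ckm* and *Tnni2* as list genes were named after their values were seen. Some genes that this rule names are not reported here. The members and lists were chosen with earlier results of these data known. The labels give 5 numbered replicates per group and the study's figure legends 5 mice per group, read here as 1 library per mouse. Litters are not named, so that the p-values measure the spread between these mice only.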

Additional observations from a re-analysis of the deposited data

Results flagged for a closer look

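Single libraries far from the rest of their group of 5 were looked for in 28 groups (14 results in HT and in WT), and 4 were found where about 1.4 would be by chance. The ratio given is the gap to the nearest library divided by the range of the group. In 3 of the 4 the distant library was HT 4. It was lowest for *Lhx6* (1151 normalised counts, nearest 1468, ratio 0.749), highest for *Pvalb* (64.9, nearest 28.7, ratio 0.792) and lowest for the *Npy* to *Sst* ratio (0.378, nearest 0.463, ratio 0.768). WT 1 was the lowest WT library for *Dlx1* (1696, nearest 2122, ratio 0.757).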

How the results depend on the processing

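The number of the 10 genes called was 0 in each of the 20 alternatives. Over all genes the number called was 0 with all libraries, 1 with length and GC trends taken out, 2 with array weights, and 0 to 2 when each library was left out in turn (2 without HT 4). Genes at an unadjusted p under 0.05 numbered 580, against 1426 without HT 4 and 1280 with array weights, which gave HT 4 the weight 0.171 against 0.858 to 1.52. Of 199 alternative log2 fold changes of the 10 genes, 196 kept their sign and none passed the threshold (smallest adjusted p 0.418). The 3 that changed sign were those of *Lhx6* without HT 1, HT 3 or WT 1, where leaving out 1 library gave -0.018 to 0.094. *Pvalb* ran from -0.82 (without HT 4) to -0.39 (without HT 1), and with a mean of at least 50 it was not tested. The *Npy* to *Sst* log2 ratio difference, 0.026 with all libraries, ran from -0.025 (without WT 1) to 0.089 and was also below 0 without HT 3 or WT 2. Without HT 4 the correlations of *Dlx1* with *Dlx2*, *Dlx5* with *Dlx6* and *Lhx6* with *Sst* were 0.70, 0.037 and 0.47. The first no longer passed, and the other 2 had changed sign. The cause was not tested.

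With the replicate number as a replicate block, 558 genes had an unadjusted p under 0.05 and 0 were called. *Npy* kept its log2 fold change of 0.23 with an unadjusted limma p of 0.00242. The labels give same-numbered libraries a shared number and name no other link between them. Their deviations from the group means correlated at 0.0911, 0.0843, 0.0815, -0.104 and 0.0926 across genes, and 4 of 5 HT libraries correlated best with their own number. The read depth behind each value is unknown, and *Vip* and *Pvalb* had the lowest values, with group means of 31.5 to 56.3 normalised counts.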
